A study of Mus musculus with 4 samples.

Results

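The balance of Ldb1 and Tal1 on chromatin was measured at 7225 places in the mouse genome, out of 9724 places that the site lists of the whole series form. A place is a called binding site of Ldb1 or Tal1 on chromosomes 1 to 19, or a chain of such sites whose centres lay under 200 bp apart. The lists held 5081 autosomal sites for Ldb1 and 5315 for Tal1. Chromatin immunoprecipitation followed by sequencing (ChIP-seq) was done on freshly isolated, formaldehyde-fixed total mouse bone marrow, with 1 library each for Ldb1, Scl/Tal1, Gata1 and control IgG. The labels name no strain, genotype, age or number of animals. No treatment separates the libraries; they differ in the antibody. Bone marrow is a mixture, so more cells with a bound site and more protein bound per cell cannot be told apart. The marrow was not checked against marker genes, because places are known here by position on mm8 and no annotation of that assembly was used.

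Ldb1 is an adaptor that does not itself bind DNA. It reaches chromatin through partners, among them the LIM-only protein Lmo2, which joins it to Tal1 and Gata1 in erythroid cells, and it can self-associate, which is thought to bring distant elements together. Tal1, also called Scl, belongs to the helix-loop-helix factors, pairs with E proteins to bind E-box motifs, and is needed for blood formation. Gata1 is a zinc finger factor of erythroid and megakaryocytic cells that binds GATA motifs. Because Ldb1 and Tal1 are described as members of the same complex, the question was how evenly their tags were spread over the places where at least 1 of them was called.

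The balance was read as the log2 ratio of Ldb1 to Tal1 tags. Each position and strand counted once, and a tag belonged to a place if its middle lay up to 250 bp from a site centre. Counts were scaled to 1000000 distinct autosomal tags per library, called RPM here. A tag number of 0.5 was added to each count before the ratio was taken. The Ldb1 library had 4367422 such tags and the Tal1 library 3477438; Gata1 had 6690786 and IgG 5433901. Thus 1 tag was worth 0.229 RPM in the Ldb1 library and 0.288 in the Tal1 library. Duplicates were more frequent for Tal1, where 63.2% of all deposited tags had a distinct position and strand, against 72.0% for Ldb1. With 1 library a side there is no replicate check, and no test was made. Nothing in the labels says that any library was repeated. The 95% intervals of single ratios cover counting error only, amplified tags are not independent molecules, and the intervals of medians describe the spread over places within this pair of libraries.

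Tal1 outweighed Ldb1 at most places once depth was taken into account. The median log2 ratio was -0.33 (95% interval of the median -0.35 to -0.33, quartiles -0.96 and 0.44). Ldb1 exceeded Tal1 in RPM at 2715 of the 7225 places (37.6%). In plain tag numbers the libraries were even: Ldb1 had more tags at 3524 places, Tal1 at 3532, and both the same number at 169. An equal number of tags gives a log2 ratio of -0.33, the value of the median, because the Tal1 library was smaller. The direction therefore rests on the scaling. The windows held 3.55% of the distinct Ldb1 tags and 4.55% of those of Tal1. When each library was instead scaled to its tags inside the places, the median was 0.03. The mean level per place was 5.27 RPM for Ldb1 and 6.83 for Tal1, against 0.426 for IgG.

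At the 2-fold limit, 985 places (13.6%) leaned toward Ldb1 and 1726 (23.9%) toward Tal1. With scaling to tags inside places the same counts were 1437 and 1042, so which side had more places past 2-fold also rests on the scaling. Of the 985, 522 had an exact conditional 95% interval that left out a ratio of 1, as had 1226 of the 1726. Of the 985, 940 had been called for Ldb1 alone, and of the 1726, 1371 for Tal1 alone. Those calls used the same tags, which the intervals do not allow for. Over all places the exact interval lay on the Ldb1 side at 555 (7.68%) and on the Tal1 side at 1738 (24.1%). The whole interval lay past 2-fold at 54 places toward Ldb1 and at 151 toward Tal1. With scaling to tags inside places, the interval lay on the Ldb1 side at 1075 places and on the Tal1 side at 861, and past 2-fold at 134 and 49. No Tal1 tag was found at 51 places and no Ldb1 tag at 17. A count of 0 allows up to 0.863 RPM for Tal1 and 0.687 for Ldb1, so these are not shown to be empty.

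The calls that made the places also divide the ratio, which is a description, since they come from the same tags. Sites of both antibodies lay at 3089 places (42.8%), where the median was -0.33 (quartiles -0.70 and 0.06). At the median such place Ldb1 had 28 tags (6.41 RPM) and Tal1 27 tags (7.76 RPM). The 1985 places called for Ldb1 alone had a median of 0.97, with 2.98 RPM of Ldb1 against 1.73 of Tal1. The 2151 called for Tal1 alone had a median of -1.25, with 1.60 RPM of Ldb1 against 3.74 of Tal1. Windows of places called for 1 antibody alone thus also held tags of the other. These stood well above the median IgG level of 0.368 RPM found in each of the 3 classes. Around places called for Tal1 alone, Ldb1 had 5.51 RPM per kb within 50 bp and 4.69 from 250 to 300 bp. Around those called for Ldb1 alone, Tal1 had 5.69 and 3.01. Of the 1001 places with another within 500 bp, 39.6% were called for Tal1 alone, against 29.8% of all places. The part of neighbouring places in these tags was not tested. Of the places past 2-fold toward Ldb1, 43 had been called for both, as had 353 of those past 2-fold toward Tal1.

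Places called for 1 antibody alone were also taken where their site lay at the caller's minimum or 1 tag over it. They were picked for tags of their own antibody, so the side of their medians follows from that choice. The caller needed 9 tags for Ldb1 and 8 for Tal1, which is 2.06 and 2.30 RPM. The 542 places called for Ldb1 alone whose site had the minimum of 9 tags had a median log2 ratio of 0.86, and the 426 with 10 tags had 0.89. For Tal1 alone, the 695 places at its minimum of 8 tags had -1.12 and the 415 with 9 tags had -1.15. On either side of the chaining limit the medians were near each other, but the places differed in make-up. The median was -0.50 at the 116 places joined by a step of 150 to under 200 bp between centres, and -0.59 at the 337 places whose nearest neighbour lay 200 to under 250 bp away. Of the joined places 99.1% were called for both, against 45.4% of the others and 42.8% of all places. Past 2-fold toward Tal1 were 13.8% and 22.6%, against 23.9% of all places.

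Places were then put in 10 equal parts by the sum of both libraries. The ratio was widest at the weak end and narrowed toward the strong end, where it lay below 0. In the strongest decile (27.3 to 126 RPM) the median was -0.54 (-0.57 to -0.50), no place was past 2-fold toward Ldb1, and 77 of 723 (10.65%) were past 2-fold toward Tal1. With scaling to tags inside places, its most Ldb1-weighted place, chr6:38840571-38840631, came to 1.13 and so lay past 2-fold. The ninth decile (16.6 to 27.3 RPM) had -0.45. From the fourth to the eighth decile (5.22 to 16.6 RPM) the median stayed at -0.33, the value of equal tag numbers. In the weakest decile (2.06 to 3.78 RPM) it was 1.26, with 411 of 723 places (56.8%) past 2-fold toward Ldb1 and 214 (29.6%) past it toward Tal1.

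**Figure D1:**
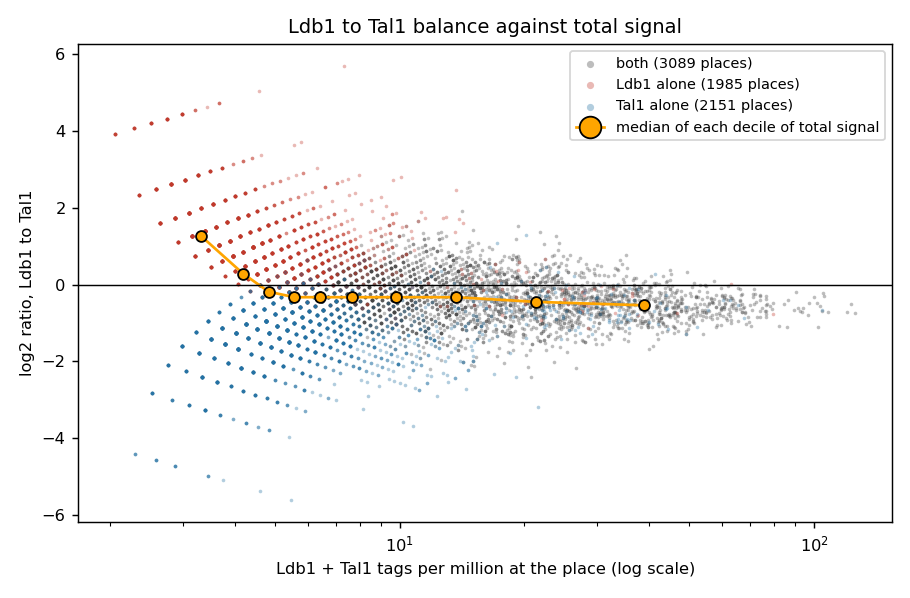
Each point is 1 of 7225 places, with the summed RPM of Ldb1 and Tal1 on a log axis and the log2 ratio of Ldb1 to Tal1 on the other; colours show which lists held it. The orange points are the medians of the 10 parts, which run from 1.26 at the weak end to -0.54 at the strong end; the stripes at the weak end come from whole tag numbers.

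The weak end and the strong end differ in how far they can be read. None of the places in the weakest decile was called for both antibodies, 67.6% were called for Ldb1 alone, and the caller's minimum was lower in RPM for Ldb1 (2.06) than for Tal1 (2.30). The strongest minus the weakest decile was -1.80. Scaling to tags inside places moves every ratio by the same 0.36, so within the same deciles the difference stays at -1.80. It also re-orders places by total signal, and with the deciles cut anew the difference was 0.44, with a wide interval of -0.50 to 1.37. What the weak end holds thus depended on how places were ranked there. The strongest decile minus the sixth was -0.21, and its value was below 0 in each of the alternatives, from -0.45 with scaling to tags inside places to -0.10 among places of at least 100 tags, where the interval of -0.31 to 0.11 held 0. With duplicates kept it was -0.39. Among the 3089 places called for both, cut into 10 parts of their own, the median was -0.20 (-0.22 to -0.10) in the weakest part and -0.59 (-0.62 to -0.54) in the strongest. Over these places the Spearman correlation of the ratio with total signal was -0.261 (Pearson r = -0.244 on the log scale). The 2 axes share the same tag counts, and places are not replicates.

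Counting each position once removed the largest share of tags in the strongest decile, though for Ldb1 the share did not rise steadily below it. In the strongest decile there were 1.81 deposited tags for each distinct tag of Ldb1 and 2.02 for Tal1, against 1.53 and 1.64 in the weakest. With duplicates kept, the median of the strongest decile as cut above was -0.53, near the -0.54 of distinct tags. Mean IgG was lowest in the weakest decile (0.335 RPM) and highest in the strongest (0.494 RPM).

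The ratio varied more than tag counting gives. In the strongest decile the SD over places was 0.386, against 0.236 from counting alone (from 1/n of both counts), which leaves an SD of 0.305 beyond counting. In the sixth decile these were 0.944, 0.553 and 0.765. In the weaker deciles the classes called for 1 antibody alone set much of the spread, because each was picked for a high count of its own antibody. Among places called for both, the SD in the weakest part (0.393) was below the counting SD (0.581), as both counts there had to pass a minimum; in the strongest part, far above both minima, it was 0.322 against 0.203.

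**Figure D2:**
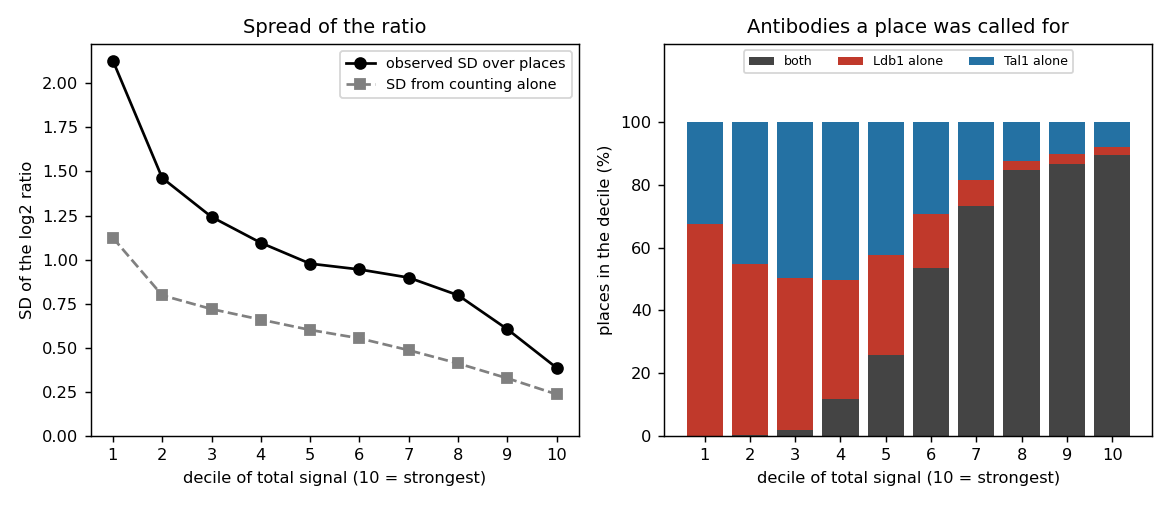
Left, the SD of the log2 ratio over the places of each decile of total signal (circles) and the SD that counting alone gives (squares); the observed SD falls from 2.13 to 0.386 and stays above the counting SD in all 10. Right, stacked bars of the share of places called for both antibodies, Ldb1 alone and Tal1 alone; the share called for both rises from 0 to 89.6%.

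The 8 places with the highest total signal all had a ratio below 0, and 6 of the 8 intervals lay below 0. With scaling to tags inside places, the ratios of those 6 stayed below 0 and the places on chromosomes 1 and 11 came to 0.07 and 0.13. The interval of chr16:32429491-32429551 then held 0. The distinct tags of the 8 places ran from 174 to 222 for Ldb1 and from 197 to 274 for Tal1. The strongest, chr15:38488211-38488311, had 205 Ldb1 tags (46.9 RPM), 274 Tal1 tags (78.8 RPM), 159 Gata1 tags (23.8 RPM) and 6 IgG tags (1.10 RPM). Its log2 ratio was -0.75 (-1.02 to -0.48), or 1.68 times as much Tal1 as Ldb1. The next, chr16:32429491-32429551, had 222 Ldb1 and 250 Tal1 tags, with 187 for Gata1 and 0 for IgG, and a ratio of -0.50 (-0.77 to -0.23). On chromosome 7, chr7:24085971-24086011 had 198 Ldb1 and 259 Tal1 tags (-0.72, -0.99 to -0.44) and chr7:80082251-80082791 had 178 and 234 (-0.72, -1.01 to -0.44).

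The most even of these strong places were chr11:32145811-32145871 and chr1:182687631-182687671. The first had 211 Ldb1, 197 Tal1, 140 Gata1 and 1 IgG tag and a ratio of -0.23 (-0.52 to 0.06). The second had 208 Ldb1, 202 Tal1, 183 Gata1 and 9 IgG tags and a ratio of -0.29 (-0.57 to 0.00). With duplicates kept, the chromosome 11 place moved to 0.01 and the other 7 places stayed below 0. The remaining pair, chr17:49486071-49486111 and chr6:29651251-29651311, had -0.66 and -0.69. The chromosome 17 place was called for Tal1 alone, yet held 177 Ldb1 tags, and another place lay 210 bp away. Each of the 8 had a Gata1 site under 200 bp away, as had 89.9% of the strongest decile.

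Among strong places the ratio stayed between -1.69 and 0.77. The 793 places with at least 100 tags of both libraries together had a median of -0.52 (quartiles -0.78 and -0.27), none was past 2-fold toward Ldb1, and 80 (10.1%) were past it toward Tal1. The interval lay above 0 at 8 of them and below 0 at 430, and with scaling to tags inside places at 45 and 171. The extremes among them, named after their values were seen and with under 10 IgG tags, were as follows. Toward Ldb1, chr6:38840571-38840631 had 97 Ldb1, 45 Tal1, 78 Gata1 and 3 IgG tags, a ratio of 1.72 (1.19 to 2.50) on the linear scale. Next came chr7:110795471-110795531 (71 Ldb1 and 33 Tal1 tags) and chr1:36074891-36075311 (68 and 32). With scaling to tags inside places the log2 ratios of these places were 1.13, 1.12 and 1.11, all past 2-fold toward Ldb1. The lack of such places therefore rests on the scaling. Toward Tal1, chr12:52751571-52751631 had 41 Ldb1, 106 Tal1, 64 Gata1 and 5 IgG tags, with Tal1 at 3.25 times Ldb1 (2.24 to 4.78). It was followed by chr5:143817271-143817351 (44 Ldb1 and 107 Tal1 tags) and chr10:79878771-79878831 (34 and 80). All 6 were called for both antibodies and had a Gata1 site, as were 89.2% and had 89.3% of the 793 places.

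The most one-sided places of all had fewer than 100 tags of both libraries together. Ranked by the bound of the interval nearest to a ratio of 1, the first toward Ldb1 was chr7:6014191-6014231, with 32 Ldb1 tags (7.33 RPM), 0 Tal1, 34 Gata1 (5.08 RPM) and 2 IgG tags. Set against a floor of 3 Tal1 tags, Ldb1 was at least 8.49-fold higher than Tal1, with the Ldb1 count taken as it stands. The exact 95% interval, which covers the counting error of both libraries, began at 6.52-fold. The places named on either side were called on these tags and ranked by this bound. Neither the floor nor the interval allows for that choice, so the folds are descriptions. The second, chr11:108039451-108039491, had 20 Ldb1, 0 Tal1, 7 Gata1 and 0 IgG tags, at least 5.31-fold higher for Ldb1 by the floor and 3.93-fold by the interval. The third, chr2:152723831-152723871, had 24 Ldb1 tags, 1 Tal1 tag, 15 Gata1 and 3 IgG tags, a ratio of 19.1 with a wide interval of 3.12 to 786. The places chr2:145580011-145580091, chr5:65098631-65098811 and chr15:76349471-76349511 each had 16 Ldb1 and 0 Tal1 tags, at least 4.25-fold higher for Ldb1 by the floor and 3.07-fold by the interval. Gata1 had 2, 2 and 12 tags at these 3, and IgG 3, 2 and 1. Of the 6 places, the first and the third had a Gata1 site.

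Toward Tal1 the place with the most tags was chr17:56717291-56717331, which had 68 Tal1 tags (19.6 RPM) against 9 of Ldb1 (2.06 RPM), 32 of Gata1 and 5 of IgG. Tal1 stood there at 9.49 times Ldb1 (4.72 to 21.6). The first by rank was chr6:28165511-28165611, with 0 Ldb1, 19 Tal1, 15 Gata1 and 3 IgG tags, at least 7.95-fold higher for Tal1 by the floor and 5.86-fold by the interval. The second was chr2:120662251-120662291, with 0 Ldb1, 16 Tal1, 10 Gata1 and 5 IgG tags, at least 6.70-fold higher by the floor and 4.84-fold by the interval. At chr8:83584051-83584191 the counts were 3 Ldb1 and 33 Tal1 tags, a Tal1 ratio of 13.8 (4.33 to 70.4). At chr3:66045891-66045951 they were 1 and 18, a Tal1 ratio of 22.6 (3.57 to 942). The sixth, chr13:16686651-16686691, had 0 Ldb1 and 13 Tal1 tags, at least 5.44-fold higher for Tal1 by the floor and 3.83-fold by the interval. The places on chromosomes 8 and 3 had a Gata1 site. All 12 of these one-sided places had been called for the antibody on their own side alone. Their folds and intervals do not allow for that call or for the ranking.

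By chromosome the balance was alike. The median lay below 0 on all 19 chromosomes, from -0.46 (95% interval -0.58 to -0.26, 329 places) on chromosome 12 to -0.13 (-0.24 to 0.04, 234 places) on chromosome 16, a range of 0.33. The interval held the overall median of -0.33 on 17 of the 19. It missed it on chromosome 16 and on chromosome 2, where the median was -0.18 (-0.29 to -0.05, 550 places). With scaling to tags inside places all these values move up by 0.36, so the order stays but not all medians lie below 0. Chromosome 12 remains below 0 and chromosome 16 comes to lie above it. So do chromosomes 2, 3, 9 and 13, and the 5 chromosomes at the overall median of -0.33. Among places of at least 40 tags, chromosomes 12 (-0.58) and 16 (-0.31) were again lowest and highest, and the intervals of chromosomes 12, 15 and 19 missed the median of those places, -0.44. Chromosome 2 was not among them, at -0.41. Chromosome 11, with the most places (626), had -0.33 (-0.45 to -0.26).

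Tags outside the places set the background of the chromosomes. Scaled to all tags outside places, their log2 ratio ran from -0.05 on chromosome 7 to 0.05 on chromosome 3, so the libraries covered the chromosomes nearly alike. The share of places past 2-fold toward Ldb1 ran from 9.33% on chromosome 4 to 20.9% on chromosome 19, against 13.6% overall. Toward Tal1 it ran from 20% on chromosome 2 to 27.7% on chromosome 19, against 23.9% overall. Chromosome 19 was thus highest on both sides, and it had the lowest share of places called for both, 34.5% against 42.8% overall.

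**Figure D3:**
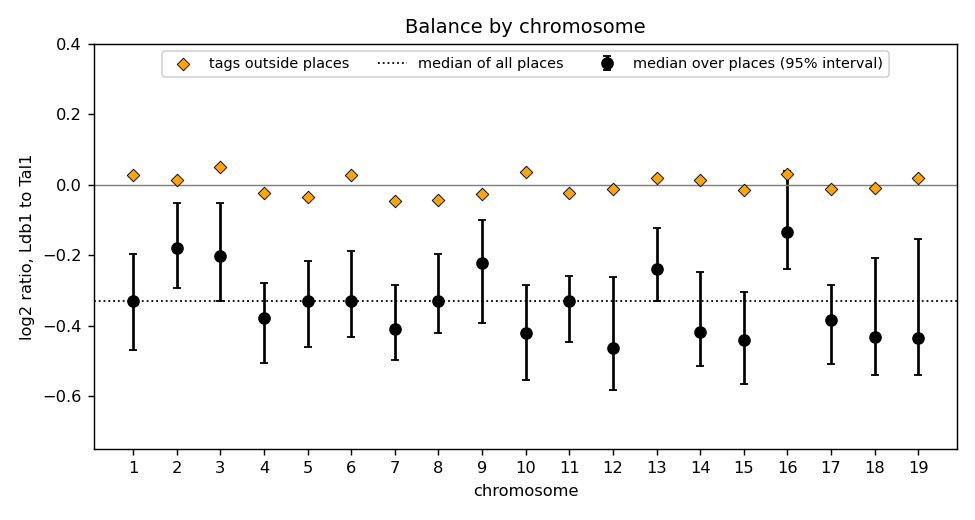
Black points are the median log2 ratio of Ldb1 to Tal1 over the places of each chromosome with the 95% interval of the median, and orange diamonds are the same ratio for tags outside the places. The medians lie between -0.46 and -0.13 and the diamonds between -0.05 and 0.05.

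Among distances from the centre, the ratio was lowest at the middle of places called for both. Around the mean site centre of the 3089 places called for both, the summed tags within 50 bp gave a log2 ratio of -0.48 (-0.50 to -0.46), at a density of 32.8 RPM per kb for Ldb1 against 45.7 for Tal1. Gata1 had 17.0 RPM per kb there and IgG 0.736. From 100 to 150 bp the ratio was -0.30 (-0.33 to -0.27), and from 250 to 300 bp -0.42 (-0.48 to -0.37). From 500 to 1000 bp it was -0.14 (-0.17 to -0.11), with 1.61 RPM per kb of Ldb1 and 1.78 of Tal1. Scaling to tags inside places moves each ratio up by 0.36, which keeps their order. The ratios within 50 bp and from 250 to 300 bp then stay below 0. Those from 100 to 150 bp and from 500 to 1000 bp come to lie above it, so the side rests on the scaling. The fragment lengths that the caller estimated also differed, at 225 bp for Ldb1 and 188 bp for Tal1; their part in the shape was not tested. At places called for Ldb1 alone the ratio went from 1.18 within 50 bp to -0.19 at 250 to 300 bp, and at those of Tal1 alone from -1.63 to -0.52. Windows of 100 and 500 bp in place of 250 gave the same median over all places, -0.33.

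**Figure D4:**
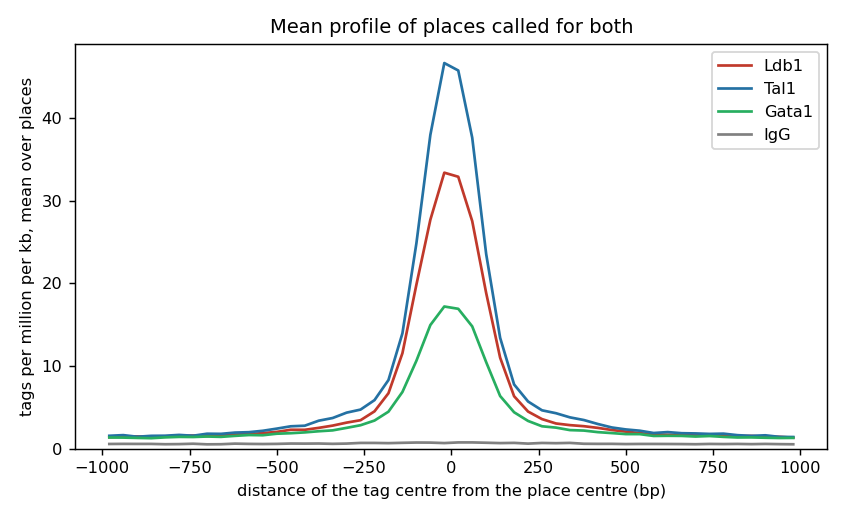
The lines give the mean RPM per kb of each library against the distance of the tag centre from the place centre, in bins of 40 bp, over the 3089 places called for both. Tal1 is the highest of the 4 at the centre, followed by Ldb1 and Gata1. IgG stays near the bottom, at 0.736 RPM per kb within 50 bp and 0.577 from 500 to 1000 bp.

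Gata1, whose sites and tags played no part in choosing the places, gave another view. A Gata1 site lay under 200 bp from a site centre at 3258 places (45.1%). The median ratio was -0.33 both at these and at the 3967 without one. That is the value of equal tag numbers, which 91 and 78 of the places shared, so the like medians do not show a like balance. In summed tags, where strong places weigh most, the ratio was -0.41 (-0.42 to -0.40) with a Gata1 site. Without one it was -0.30 (-0.32 to -0.28). The places with a Gata1 site were the stronger ones: 7.88% of the weakest decile and 89.9% of the strongest had one. They were also less spread, with 6.02% past 2-fold toward Ldb1 (13.6% of all places) and 17.9% toward Tal1 (23.9% of all). Without a Gata1 site these shares were 19.9% and 28.8%.

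At like total signal the median of the places with a Gata1 site was the higher one in 9 of the 10 deciles. The intervals of the 2 kinds lay apart in 2 of the 10, the eighth and the ninth, and met or overlapped in the others. In the eighth decile the median was -0.22 with a Gata1 site (512 places) against -0.52 without (211). In the ninth it was -0.41 (585) against -0.56 (137), and in the strongest -0.53 (650) against -0.62 (73). The exception was the weakest decile, with 1.02 (57 places) against 1.26 (666). In the upper deciles IgG also differed: in the strongest its mean was 0.429 RPM with a Gata1 site and 1.07 without, and in the eighth 0.349 and 0.671. Fewer of the places without a Gata1 site were called for both, 30.1% against 96.3% in the strongest decile. Among places called for both, 7 deciles had at least 20 places of each kind. The median with a Gata1 site was the higher one in 4 of these 7, with differences from -0.13 to 0.22. The intervals lay apart in 1 of the 7, the ninth decile. In the strongest decile the order was turned, at -0.53 with a Gata1 site (626 places) against -0.40 without (22). The part of IgG and of the classes in the difference was not tested beyond this. Leaving out places with 10 or more IgG tags left the count at 9 of 10.

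**Figure D5:**
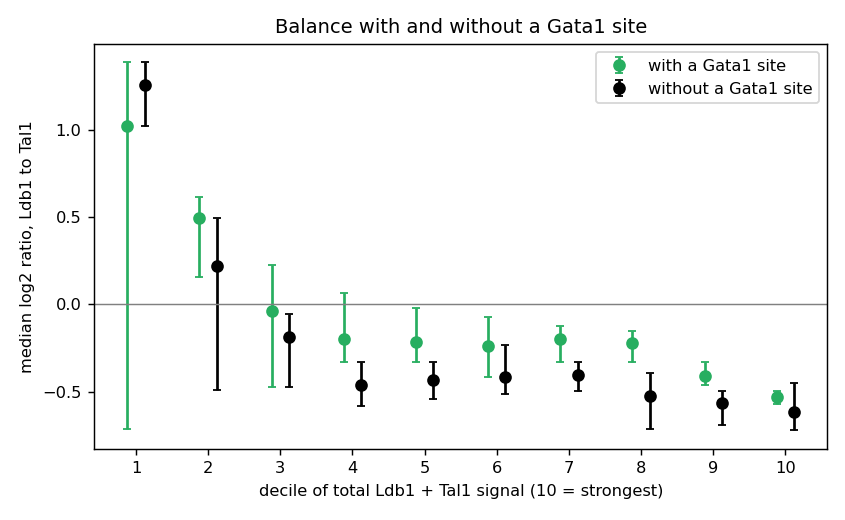
Points are the median log2 ratio of Ldb1 to Tal1 at places with (green) and without (black) a Gata1 site in each decile of total signal, with the 95% interval of the median. The green median is the higher in 9 of 10 deciles, and the intervals of the 2 kinds meet or overlap in most of them.

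In places of at least 100 tags, the ratio and the Gata1 level had a Spearman correlation of 0.133 over 793 places (Pearson r = 0.123), and among all places called for both it was -0.124 (r = -0.128). Both values are weak, differ in sign and come from places that share libraries and depth.

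Few places had a high IgG level. IgG had 10 or more tags at 37 places, whose median ratio was -0.43 (-0.69 to 0.02). The 3 places with the most IgG tags lay before 3.1 Mb on their chromosomes, and all 3 moved toward Ldb1 when duplicates were kept. At chr5:3000011-3002591 there were 138 Ldb1, 109 Tal1, 89 Gata1 and 129 IgG tags and a ratio of 0.01 (-0.36 to 0.39). With duplicates kept this place had 1571 Ldb1 and 530 Tal1 tags and a ratio of 1.43. At chr9:3018771-3019491 there were 58 Ldb1, 51 Tal1, 31 Gata1 and 54 IgG tags (-0.14, or 0.47 with duplicates). At chr11:3001731-3002071 there were 99, 65, 47 and 37 tags (0.27, or 0.81 with duplicates). In all, 26 places ended by 3.1 Mb. Their median was 0.18 (-0.14 to 0.37), their mean IgG level was 3.43 RPM against 0.426 over all places, and they had 4.39 deposited tags per distinct tag for Ldb1 and 3.11 for Tal1.

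Places also came in stretches. Chaining places under 20 kb apart gave 294 stretches with at least 4 places, 1483 places in all. The median of the stretches' own medians was -0.49 (quartiles -0.79 and -0.14), below 0 in 240. Of the 294, 206 held a place on either side of 0, where 37.6% of all places had a ratio above 0. How many such stretches unrelated places would form was not tested. In the sum of their tags the interval lay above 0 in 11 stretches and below 0 in 184. With scaling to tags inside places the median was below 0 in 179 stretches, and the interval of the sum lay above 0 in 32 and below 0 in 75. Where windows of neighbouring places overlap, tags enter these sums more than once, and the intervals are then too narrow.

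The stretch with the highest median, chr5:44491831-44511711, held 4 places called for Ldb1 alone. Together they had 67 Ldb1, 20 Tal1, 52 Gata1 and 8 IgG tags, a summed log2 ratio of 1.42 (0.68 to 2.21). The next, chr6:100122931-100154731, had 5 places with 63 Ldb1, 25 Tal1, 39 Gata1 and 3 IgG tags, and the interval of its summed ratio was 0.32 to 1.74. The third, chr14:50050011-50072631, had 76 Ldb1, 44 Tal1, 56 Gata1 and 12 IgG tags, and the interval of its sum (-0.09 to 1.03) held 0.

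On the Tal1 side, chr1:90036631-90062011 had the lowest median, -2.24 over 4 places, with 65 Ldb1, 96 Tal1, 72 Gata1 and 17 IgG tags (sum -0.89, -1.37 to -0.42). The stretch chr11:109281371-109309391 had 5 places with 56 Ldb1, 97 Tal1, 103 Gata1 and 7 IgG tags (-1.12, -1.62 to -0.63). In chr13:81346971-81349931, 4 places within 3 kb had 29 Ldb1, 67 Tal1, 107 Gata1 and 21 IgG tags (-1.54, -2.22 to -0.89). In the last 2 of these stretches some places lay under 500 bp apart, so tags in the overlap of their windows were counted more than once. That held for 1001 of all places, whose median was -0.59, and the 5824 places with no other within 1000 bp had -0.22.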

How the data were processed

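Aligned tags were deposited 1 per line; the submitters' processing notes name mm8, and the aligner is not given in the sources used here. The authors called sites with SISSRs 1.4 on each antibody's library with IgG as background (p setting 0.001, e-value 10, windows of 20 bp, 1 tag per position), per the file headers, and deposited a count of tags per site. Here those counts served only to find sites at the caller's minimum and the upper 50% of each list. Tags were collapsed, placed and counted as the report states, with Python 3.11.15, numpy 2.4.6, pandas 2.3.3, scipy 1.17.1 and matplotlib 3.10.9. Ratio intervals are exact conditional (Clopper-Pearson) 95% intervals, those of medians are order-statistic intervals, and a count of 0 was set against 3 tags per library. The ratio, its interval and the counting SD were tested on simulated data. IgG tags were 36 bases long and the others 25. Named are the 8 strongest places, the 6 most one-sided on each side by interval bound with under 10 IgG tags, the 3 with the most IgG tags and the 3 stretches on each side with the most extreme medians. The places, rule and lists were chosen with earlier results of these data known. Genes and sequences at the places are not given, because no genome of mm8 was used; the fixed gene lists were not run.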

Additional observations from a re-analysis of the deposited data

Results flagged for a closer look

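Chromosome X was outside the 19 chromosomes used and carried signal of both antibodies above IgG. Its 107 places (42 called for both, 31 for Ldb1 alone, 34 for Tal1 alone) held 1950 Ldb1, 1984 Tal1 and 182 IgG tags. Ldb1 stood at 13.3 times IgG (11.4 to 15.6) and Tal1 at 17.0 times (14.6 to 19.9). These places were called with IgG as background, so an excess of the called antibody over IgG follows from that choice. The median log2 ratio of Ldb1 to Tal1 there was -0.33 (-0.57 to -0.14), and 12 places were past 2-fold toward Ldb1 and 28 toward Tal1, shares of 11.2% and 26.2%. Chromosome M held 601 distinct Ldb1 tags (138 RPM) and 0 tags of Tal1, Gata1 and IgG, so no balance could be formed there. Whether chromosome M was kept in the deposited tags of those libraries was not tested. The Ldb1 tags are therefore not read as signal of that antibody alone.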

How the results depend on the processing

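Each antibody has 1 library, so no library could be left out. No paired analysis was possible because there is 1 library a side. Of 157 alternative values of 17 results, 110 stayed within the interval (or within 1.5 times for a count), 45 moved and 2 reversed. The strongest decile minus the sixth, the count of deciles by Gata1 site and the limit of 100 tags were chosen after seeing the data, as were the 6 extreme places of at least 100 tags. The range of chromosome medians stayed between 0.28 and 0.38, and the count of deciles with the higher median at Gata1 sites between 7 and 10. Scaling to tags inside places turned the median to 0.030 and the strongest minus the weakest decile, cut anew, to 0.44, gave 1042 places past 2-fold toward Tal1 and -0.45 for the strongest minus the sixth decile. Under it intervals lay toward Ldb1 and Tal1 at 1075 and 861 places, past 2-fold at 134 and 49, at 45 and 171 of the places of at least 100 tags, and in 32 and 75 stretches; these counts, too, were added after seeing the data. Scaling to tags outside places changed none of these sides. Depth limits single places: at the median of 27 tags of both libraries together most ratios cannot be told from 1.

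The median was -0.27 with duplicates kept, -0.38 with own flanks subtracted, -0.22 without places within 1000 bp of another, -0.32 with both libraries thinned to 5767555 deposited tags, -0.39 for the upper 50% of each list, -0.31 with centres under 500 bp chained, -0.35 with at least 20 tags and -0.52 with at least 100. Places past 2-fold toward Ldb1 and Tal1 numbered 253 and 660 in the upper 50% of each list, 350 and 1016 with at least 20 tags, 0 and 80 with at least 100, 1564 and 2838 at 1.5-fold and 497 and 713 at 3-fold. The strongest minus the weakest decile was -1.44 with duplicates kept, -1.62 and -1.58 with windows of 100 and 500 bp, -1.49 with flanks subtracted, -1.65 without places of 10 or more IgG tags, -1.47 with 2 tags added, -1.22 in the upper 50%, -0.79 with at least 20 tags and -0.215 with at least 100. The strongest minus the sixth decile was -0.39 with duplicates kept, -0.31 in the upper 50% and -0.10 with at least 100 tags. Places with minus places without a Gata1 site differed by 0.00 in the median, both medians being the value of equal tag numbers. The difference was -0.082 with duplicates kept, -0.064 with 500 bp windows, -0.12 without places near another, -0.12 with 500 bp chaining and 0.10 with at least 100 tags. For the 29 named places, 13 of 319 alternative values left the counting interval, 8 of them the strongest places under scaling to tags inside places, and no place whose interval left out 0 changed sign.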

Other observations

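Over 123 pairs of adjacent places 1 to 5 kb apart, each with at least 40 tags, the log2 ratios had a Pearson r of 0.218 (Spearman rho 0.203). It was 0.022 over 173 pairs 5 to 20 kb apart, 0.045 over 187 pairs 20 to 100 kb apart and -0.081 over 143 pairs 100 to 1000 kb apart. The median difference between neighbours was 0.52, 0.60, 0.53 and 0.60. Pairs share both libraries, a place can stand in 2 pairs, and r values of this size in counts of this depth are given as a description.

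The 4135 places of 1 site had a median ratio of -0.33 and 20 tags of both libraries together. The 3010 places of 2 sites had a median ratio of -0.33 and 53 tags, and the 79 places of 3 sites had -0.54 and 111 tags.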
